A study of Mus musculus with 14 samples.

Results

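The genes Adarb2, Car12, Gpc3, Cdh9 and Cdh12 were named as a set of dentate-enriched adhesion and identity genes, and they are 5 of the 255 genes counted. They were picked from earlier results on these cells for their levels in neurons of the dentate gyrus (DG), the input field of the hippocampus, against its CA1 and CA3 fields. Differences between the fields are therefore given as a description, with no test. Tests are given for the groups and the imaging runs, which the choice did not use, and for the position of a cell within a field, a split chosen after these data had been seen. The values matched the label for Adarb2 and Car12, and for Gpc3 with more scatter. This match is no independent support, since the label came from these same cells. The values went against the label for Cdh9, which was about as high in CA3 as in DG. They also went against it for Cdh12, whose level was close to even in DG, CA1 and CA3.

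Transcripts had been imaged as single spots by MERFISH, in which barcoded probes are read over rounds of fluorescence, in sagittal sections cut from fresh-frozen mouse hemibrains, and counted inside cell outlines. The 14 samples were Ctl-Veh (unirradiated, vehicle; n = 5), Ctl-Rz (unirradiated, RZ; n = 3), Ir-Veh (irradiated, vehicle; n = 4) and Ir-Rz (irradiated, RZ; n = 2), where RZ is the labels' abbreviation of the drug; the sources used here give no strain, age, radiation dose or drug dose, and no genetic change. A sample's number is that of its imaging run, of which there were 7, with 2 samples from different groups in each. The files held 13602 cells, all of them annotated as excitatory neurons by the authors: 8561 in DG, 3397 in CA1 and 1644 in CA3.

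Total counts ran from 137786 to 434127 per sample, and the median cell held 204 counts (DG), 364 counts (CA1) or 311 counts (CA3). Samples shared 0 of 13602 cell identifiers. By CPM, the scale given below, all 5 measured genes of a dentate granule neuron list (Calb1, Grm2, Bcl11b, Gad1 and Fst) were higher in DG than in CA1 and CA3, as were 97 of all 255 genes. Per cell, Bcl11b was lower in DG (2.01 counts) than in CA1 (2.15 counts). The list was written with earlier results of these data known, so this is a description and no independent check of the classes. Other genes of that list, such as Prox1, were not analysed here. Levels are given as CPM, the counts of a class in a sample scaled to 1000000 over the 255 genes, so they are relative to these genes and not to a cell. A log2 difference between classes or positions was taken within each sample on log2(CPM + 5).

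Granule neurons fill the dense cell layer of the dentate gyrus and send mossy fibres to CA3 pyramidal neurons, which project on to CA1. Classical cadherins are calcium-dependent adhesion proteins whose type II members, Cdh9 and Cdh12 among them, help sort neurons and place synapses, and mouse Cdh9 is known for its role in forming mossy fibre synapses between DG and CA3 neurons. Gpc3 encodes a glypican, a heparan sulfate proteoglycan held on the cell surface by a lipid anchor. Car12 encodes a membrane-bound carbonic anhydrase that acts on the outer face of the cell, and Adarb2 an RNA-binding relative of the RNA-editing deaminases that lacks known editing activity and is widely used as a marker of a group of cortical interneurons.

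Windows around the start sites of Adarb2, the member with the largest difference of DG over CA3, and of Cdh9 and Cdh12, the pair whose DG levels followed each other most closely, are shown for comparison. They run from 250 bases before to 50 bases after the start in RefSeq's GRCm38.p6 tables, where all 5 members matched. Adarb2 lies on chromosome 13 (chr13:8202616-8202915, plus strand), Cdh9 on chromosome 15 (chr15:16728665-16728964, plus strand) and Cdh12 on the same chromosome (chr15:21111202-21111501, plus strand). The Cdh12 window lies inside that gene's span (chr15:20448878-21598421), far from its first base, so the Cdh12 start used here is an inner one. Capitals mark CAGCTG, an E-box, which reads the same on both strands.
Adarb2: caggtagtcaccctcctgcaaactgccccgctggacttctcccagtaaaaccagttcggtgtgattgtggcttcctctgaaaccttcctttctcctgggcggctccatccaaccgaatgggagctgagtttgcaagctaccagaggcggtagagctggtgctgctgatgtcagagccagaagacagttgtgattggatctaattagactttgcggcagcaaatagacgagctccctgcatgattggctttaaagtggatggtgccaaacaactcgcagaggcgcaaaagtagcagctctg
Cdh9: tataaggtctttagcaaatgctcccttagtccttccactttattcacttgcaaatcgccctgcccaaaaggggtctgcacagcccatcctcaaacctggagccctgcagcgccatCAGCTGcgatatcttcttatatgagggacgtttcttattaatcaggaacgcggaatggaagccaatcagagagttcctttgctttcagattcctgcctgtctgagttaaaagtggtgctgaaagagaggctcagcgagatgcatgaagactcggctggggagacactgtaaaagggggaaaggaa
Cdh12: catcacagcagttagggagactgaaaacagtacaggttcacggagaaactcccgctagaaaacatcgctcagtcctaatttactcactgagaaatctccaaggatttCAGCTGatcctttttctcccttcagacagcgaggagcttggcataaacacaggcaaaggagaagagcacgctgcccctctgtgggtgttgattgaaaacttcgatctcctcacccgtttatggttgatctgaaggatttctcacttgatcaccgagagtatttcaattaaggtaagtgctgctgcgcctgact
CAGCTG stood 135 bases before the Cdh9 start and 143 bases before the inner Cdh12 start used here. It was not in the windows of the other 3 genes, while 16.3% of all 32851 windows held it. Neither CAGATG, held by 17.2% of windows on either strand, nor TATAAA, held by 13.6%, was found in any of the 5, and the motifs did not overlap. The Gpc3 window (chrX:52613925-52614224, minus strand) held 30 CG steps, the Car12 window (chr9:66713436-66713735, plus strand) 9, those of Adarb2 and Cdh12 9 each and that of Cdh9 8, against a median of 7. A match is a description of these letters only.

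By CPM, Adarb2 was more than 6 times as high in DG as in either CA field by mean within-sample fold (9.64 over CA1 and 6.76 over CA3). It averaged 1334 ± 641 CPM in DG (SD, n = 14 samples), 130 ± 52.4 CPM in CA1 and 192 ± 97.2 CPM in CA3. The lowest DG value, 378 CPM in Ctl-Veh 2, lay below the highest CA3 value of 411 CPM in Ctl-Rz 11, but within each sample DG was higher than CA1 and CA3. The log2 difference of DG over CA1 was 3.27 ± 0.58, the 4th highest of 255 genes, and that of DG over CA3 was 2.76 ± 0.73, the 3rd highest. Per cell, the log2 difference over CA1 was smaller, at 2.41. The CA levels rest on 165 Adarb2 counts in CA1 and 104 in CA3. CA3 over CA1 was 0.51 ± 0.87, within the spread between samples.

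Car12 was the steadiest member. It stood at 4313 ± 506 CPM in DG, 1112 ± 252 CPM in CA1 and 912 ± 255 CPM in CA3, and the lowest of the 14 DG values (3422 CPM) was above the highest CA value (1693 CPM in CA1). Its log2 difference was 1.98 ± 0.21 over CA1, the 11th highest, and 2.27 ± 0.30 over CA3, the 10th highest. CA1 and CA3 did not differ beyond their spread (CA3 over CA1, −0.29 ± 0.45).

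Gpc3 followed the same order with more overlap, at 891 ± 354 CPM in DG, 382 ± 181 CPM in CA3 and 229 ± 81.2 CPM in CA1. DG was higher than CA1 in 14 of 14 samples (log2 1.93 ± 0.86, 12th highest) and higher than CA3 in 13 of 14 (1.25 ± 0.90, 20th highest). The exception was Ctl-Veh 2, with 683 CPM in CA3 and 429 CPM in DG, from 17 Gpc3 counts in its 100 CA3 cells. CA3 over CA1 was 0.68 ± 0.69, close to its own spread.

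Cdh9 set DG and CA3 apart from CA1. It averaged 3111 ± 1679 CPM in DG, 2411 ± 1686 CPM in CA3 and 146 ± 67.6 CPM in CA1, and no CA1 value (57.1 to 336 CPM) reached the lowest CA3 value of 441 CPM. DG over CA1 was 4.30 ± 0.79, the 2nd highest of 255 genes, and CA3 over CA1 was 3.76 ± 1.11, the highest of all. DG over CA3 was only 0.54 ± 0.39 (63rd), higher in 14 of 14 samples by CPM. Per cell the order of the last pair turned, with 0.723 ± 0.470 counts in a DG neuron and 0.817 ± 0.616 in a CA3 neuron, and a log2 difference of −0.02 on that scale.

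Cdh12 was near even across the fields. It averaged 1279 ± 591 CPM in DG, 1006 ± 540 CPM in CA3 and 984 ± 537 CPM in CA1. DG was higher than CA1 in 13 of 14 samples (log2 0.42 ± 0.29, 96th of 255) and higher than CA3 in 12 of 14 (0.42 ± 0.49, 70th), where the medians over all genes were 0.23 and −0.01. CA3 and CA1 differed by less than the spread between samples (log2 −0.0034 ± 0.49). Per cell, Cdh12 was lower in DG (0.299 ± 0.173 counts) than in CA1 (0.375 ± 0.217) and CA3 (0.346 ± 0.211), and the log2 differences became −0.34 and −0.14.

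**Figure D1:**
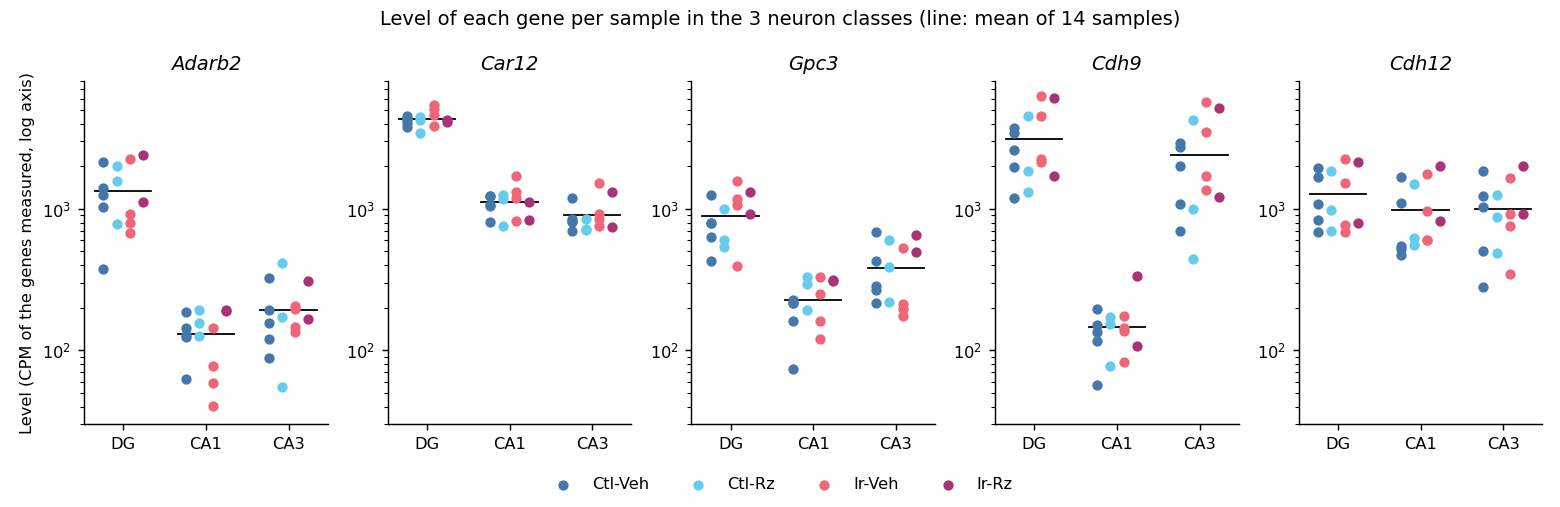
Level of each gene (CPM of the 255 genes, log axis) in DG, CA1 and CA3 neurons; each point is 1 sample, coloured by group, and the line is the mean of 14 samples. Adarb2, Car12 and Gpc3 are highest in DG, Cdh9 is high in DG and CA3 and low in CA1, and Cdh12 covers nearly the same range in all 3 classes.

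DG neurons held fewer counts than CA neurons, so shares of cells with a count of a gene were compared after each cell was thinned to 100 counts. This left out 1385 DG, 253 CA1 and 171 CA3 cells with fewer. Cdh9 was then found in 25.6% ± 10.8 of DG cells (SD, n = 14), 19.3% ± 10.7 of CA3 cells and 1.47% ± 1.03 of CA1 cells. Without thinning the shares were 43.2%, 42.7% and 5.28%. Adarb2 was found in 12.5% ± 5.90 of thinned DG cells, 2.25% ± 1.62 of CA3 cells and 1.46% ± 0.907 of CA1 cells, and in 24.3%, 5.75% and 4.95% without thinning. Thinned shares of Car12 were 33.7% in DG, 10.9% in CA1 and 8.44% in CA3. Those of Cdh12 were 11.1%, 9.69% and 9.46%, within 1 SD of each other.

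Low counts per cell kept the members from marking single cells. The authors' main DG cluster (Leiden cluster 0) held 6000 DG neurons, of which 73.2% had no Adarb2 count, 38.0% no Car12, 81.4% no Gpc3, 53.5% no Cdh9 and 75.3% no Cdh12. None of the 5 was detected in 12.2% of these cells and all 5 in 1.12%. The highest count in a cell was 16 for Car12, 8 for Cdh9, 6 for Adarb2 and Cdh12 and 4 for Gpc3. Of all Adarb2 counts there, the top 1% of cells held 9.86%, so its counts were spread over many cells.

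Other cells of the DG class kept the pattern in part. The 2383 DG neurons of Leiden cluster 3, with a median of 94 counts against 247 in the main cluster, had nearly the same CPM, with log2 differences from −0.12 ± 0.43 for Adarb2 to 0.08 ± 0.30 for Gpc3. A further 96 DG-annotated cells lay in Leiden cluster 1, the main CA1 cluster. In these the pooled Adarb2 level was 390 CPM (exact Poisson 95% interval 178 to 741, counting error only) against 1317 CPM in the main DG cluster, from 9 counts. Their Car12 was 5028 CPM (4155 to 6031) against 4346 in the main DG cluster, and their Cdh9 2167 CPM (1609 to 2857) against 2824. Gpc3 was 260 CPM (95.4 to 566) there against 861, and Cdh12 was 780 CPM (462 to 1233) against 1205. The 188 CA3-annotated cells in that same cluster had 1324 CPM of Cdh9 (1038 to 1665), where the 1129 CA3 cells of Leiden cluster 8 had 2773 CPM. These clusters were made from the same counts, so the differences are a description.

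Few relatives of the members were in the 255 genes used here, whose names end alphabetically at Kcnj8; genes later in the alphabet were not analysed. Of the listed cadherins, Celsr1, a large cadherin receptor, was 384 ± 103 CPM in DG and 166 ± 71.0 in CA1 and higher in DG in 14 of 14 samples, though against CA3 (306 ± 110) in 11 of 14. Cdh5, the cadherin of blood vessel walls, was 350 ± 147 CPM in DG, 365 ± 125 in CA1 and 503 ± 333 in CA3. Cdh7, a type II cadherin, stayed at 44.4 ± 35.0 CPM in DG, 42.9 ± 35.6 in CA1 and 71.0 ± 74.3 in CA3. Of the heparan sulfate genes, Hs3st1, a sulfotransferase, was lower in DG (574 ± 97.5 CPM) than in CA1 (946 ± 149) in 14 of 14 samples. The carbonic anhydrases Car3 and Car4 were higher in DG than in CA1 (log2 0.94 and 1.18) but not than in CA3 (−0.18 and 0.06). No other gene of the ADAR family was measured (0 of 4 listed), and of 11 other adhesion and guidance genes 2 were higher and 2 lower in DG than in both CA fields.

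Since Adarb2 and Gad1 both mark interneurons, the 13 measured inhibitory neuron markers were set beside it. Gad1, which encodes a GABA-synthesizing enzyme, was 5248 ± 1005 CPM in DG 379 ± 137 CPM in CA1 and 451 ± 184 CPM in CA3. Gad2, the related enzyme gene, was 499 ± 120 CPM in DG, 384 ± 137 in CA1 and 650 ± 197 in CA3. Of the 13 markers, 6 were higher and 4 lower in DG than in both CA fields, and none averaged 0. Their summed level ran from 7568 to 14420 CPM in DG, from 8964 to 22457 in CA1 and from 9529 to 28833 in CA3, with Cck, at 11850 ± 4145 CPM in CA1, the largest part there. Of the markers of other cells, 4 of 5 for astrocytes, 4 of 6 for microglia, 0 of 4 for oligodendrocytes and 3 of 10 for vessels and ependyma were higher in DG than in both CA fields, beside 97 of all 255 genes. The summed astrocyte markers ran from 1963 to 3972 CPM in DG, from 1095 to 2268 in CA1 and from 1579 to 3916 in CA3. The part of RNA from other cells in the members' levels was not tested.

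Over the 42 values of 14 samples and 3 classes, the genes most like Adarb2 were Gad1 (Pearson r = 0.894), Camk2g (0.874) and Grm2 (0.868). The same 3 genes led for Car12, with Camk2g at 0.960, Gad1 at 0.953 and Grm2 at 0.911. Cdh9 was most like Kcnc1, a potassium channel gene (0.917), and Gphn, which encodes the inhibitory synapse scaffold gephyrin (0.885). Gpc3 was most like Gng2 (0.838), Ctnnb1 (0.779) and Cbs (0.767), and Cdh12 most like Bace1 (0.805), Gpr37 (0.744) and Fermt2 (0.735). The points share samples, runs and classes, so r is a description of how the levels line up.

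The group comparisons asked what radiation and RZ did to these genes. In DG neurons no member passed a test in any of them (0 of 5), where the share of all 252 genes called was 0% in each. The edgeR quasi-likelihood test called 0 genes for radiation (4 at an unadjusted p under 0.05), 0 for RZ after radiation (5) and 0 for RZ without radiation (4), and DESeq2 also called 0 in each. In CA1 it called 0 of 233 genes and in CA3 0 of 218 in each comparison, and a share of 0% again. Leaving out Ir-Rz 9, 1 gene passed in CA3 for RZ after radiation, Cbln4 (log2 2.92, adjusted p = 0.0358, edgeR), named after its value was seen. The Ir-Rz group was then 1 sample, assumed to vary like the other groups.

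Cdh9 in DG had the widest group contrast under radiation without passing. It was 1962, 2613, 1185, 3462 and 3736 CPM in Ctl-Veh 2, 3, 8, 11 and 12, and 2237, 2150, 6250 and 4501 CPM in Ir-Veh 1, 2, 9 and 12. The groups overlapped, with the high values of each in runs 9, 11 and 12. The log2 fold change of Ir-Veh over Ctl-Veh was 0.48 with an SE of 0.38 (95% limits −0.31 and 1.27, edgeR adjusted p = 0.999). Within run 2 the irradiated sample was higher by 0.13 and within run 12 by 0.27 on the log2 scale.

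Adarb2 in DG was 791, 675, 2236 and 916 CPM in Ir-Veh 1, 2, 9 and 12, and 1126 and 2383 CPM in Ir-Rz 1 and 9. The Ir-Rz values lay within or just above the range of Ir-Veh, and the highest value of each group came from run 9. Ir-Rz over Ir-Veh came to 0.51 on the log2 scale with an SE of 0.47 (95% limits −0.47 and 1.48, edgeR adjusted p = 0.997). Within run 1 it was 0.51 and within run 9 it was 0.09. In CA1 the same contrast was 1.23 with an SE of 0.48 for Adarb2, from 27 counts in the 4 Ir-Veh samples and 34 in the 2 Ir-Rz samples. Its 95% limits were 0.24 and 2.22 (edgeR unadjusted p = 0.0168, adjusted p = 0.996). In CA3 that contrast was 1.03 with an SE of 0.49 for Gpc3 (95% limits 0.00026 and 2.05, edgeR unadjusted p = 0.0499, adjusted p = 0.998). The intervals of all other member contrasts in CA1 and CA3 included 0.

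The other contrasts in DG did not pass either. In this paragraph ± gives an SE worked back from the edgeR estimate and its F statistic, and not an SD. For radiation the log2 fold change was −0.18 ± 0.37 for Adarb2, 0.16 ± 0.22 for Car12, 0.36 ± 0.33 for Gpc3 and −0.0054 ± 0.37 for Cdh12. For RZ without radiation the values ran from −0.30 ± 0.37 for Gpc3 to 0.06 ± 0.40 for Adarb2. With the imaging run as a block, 0 genes were called again (10, 11 and 13 at an unadjusted edgeR p under 0.05 for radiation, RZ after radiation and RZ without radiation). The radiation values became 0.16 for Adarb2, 0.078 for Car12, −0.022 for Gpc3, 0.28 for Cdh9 and 0.0067 for Cdh12. They rest on runs 2 and 12, the only runs with both Ir-Veh and Ctl-Veh. For Adarb2 the log2 difference was 0.83 within run 2 and −0.60 within run 12. The interval of Cdh12 under radiation, −0.77 to 0.76, came from the fit without the run. Its width therefore takes in differences between runs and a spread estimated over all 14 samples. Within runs 2 and 12, Ir-Veh over Ctl-Veh was 0.0074 and −0.14 for Cdh12 on the log2 scale. The RZ effect did not pass as different between irradiated and unirradiated samples for any member (log2 differences −0.04 to 0.45, edgeR adjusted p = 0.997).

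**Figure D2:**
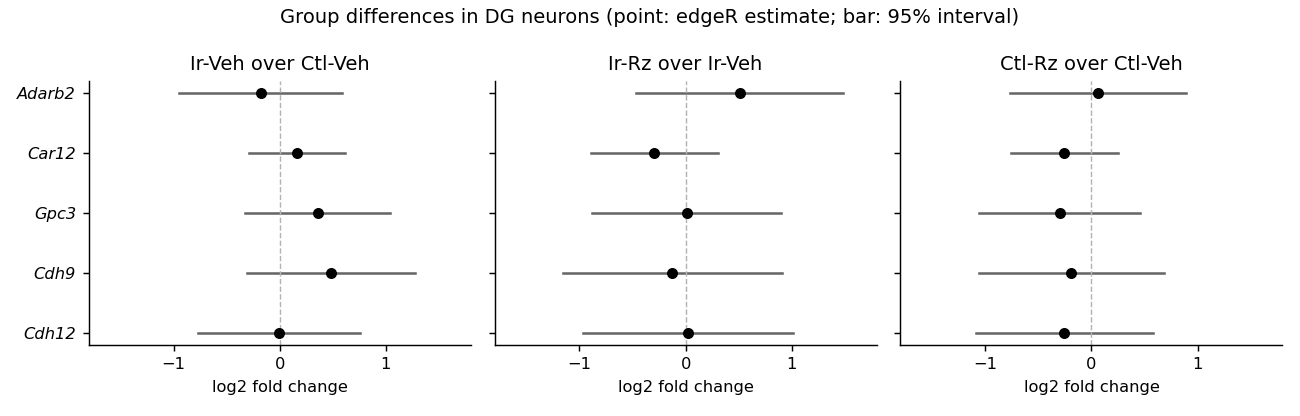
Log2 fold changes of the 5 genes in DG neurons for radiation (Ir-Veh over Ctl-Veh), RZ after radiation (Ir-Rz over Ir-Veh) and RZ without radiation (Ctl-Rz over Ctl-Veh). Points are edgeR estimates and bars are 95% intervals worked back from each estimate and its F statistic. Every interval in the 3 panels includes 0.

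The levels of 4 members in DG differed between imaging runs. Of the 252 genes tested, 38.1% differed between runs given the group (96 genes, edgeR adjusted p under the threshold), and Cdh12, Cdh9, Gpc3 and Adarb2 were among them. Cdh12 (adjusted p = 0.00112, the 8th of 252) and Cdh9 (0.00117, the 9th) stood near the top of the order, followed by Gpc3 (0.00828) and Adarb2 (0.0181). Car12 did not pass (0.166). Leaving out single samples moved the count of genes from 96 to between 45 and 118, with 58 left without Ctl-Veh 2, 57 without Ctl-Rz 11, 45 without Ir-Veh 2, 59 without Ir-Veh 9, 47 without Ir-Veh 12 and 54 without Ir-Rz 1. Cdh9 and Cdh12 passed in each of those fits. Adarb2 no longer passed without Ctl-Veh 11 (0.102), Ctl-Rz 11 (0.0754) or Ir-Veh 9 (0.0628), nor Gpc3 without Ir-Veh 2 (0.0550).

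Cdh12 varied less within a run than between runs. In DG it was 2254 and 2132 CPM in Ir-Veh 9 and Ir-Rz 9, 1958 and 1838 CPM in Ctl-Veh 11 and Ctl-Rz 11, and 1677 and 1523 CPM in Ctl-Veh 12 and Ir-Veh 12. In runs 1, 2, 3 and 8 it lay between 683 and 1083 CPM, so the 6 samples of runs 9, 11 and 12 were all above the other 8. Cdh9 split the same way, from 3462 to 6250 CPM in runs 9, 11 and 12 and from 1185 to 2613 CPM in the other runs. Within a run, Cdh9 differed least in run 9, at 6250 and 6065 CPM in Ir-Veh 9 and Ir-Rz 9, and most in run 3, at 2613 and 1863 CPM in Ctl-Veh 3 and Ctl-Rz 3 (by 0.04 and 0.49 on the log2 scale, either sign).

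Adarb2 and Gpc3 were spread over the runs in another order. Adarb2 averaged 2310 CPM in run 9 and 2072 CPM in run 11, but 1155 CPM in run 12 and 526 CPM in run 2, where Ctl-Veh 2 and Ir-Veh 2 lay apart at 378 and 675 CPM. Gpc3 averaged 1442 CPM in run 9, 1208 in run 12 and 990 in run 1, and 413 CPM in run 2. Car12 ranged only from 3606 CPM in run 8 to 4803 CPM in run 12.

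In CA neurons Cdh12 in both fields and Cdh9 in CA3 were highest in the same 3 runs. Cdh9 in CA1, where it was low, was highest in runs 9 and 12 but not in run 11. Cdh12 averaged 1896 CPM in run 9 and 1588 in run 11 in CA1, against 510 to 711 CPM in runs 1, 2, 3 and 8. Cdh9 in CA3 averaged 5417 CPM in run 9, 3496 in run 11 and 3206 in run 12, against 569 to 1507 CPM in the other runs. In CA1, Cdh9 averaged 240 CPM in run 9 and 186 CPM in run 12, but 105 CPM in run 11, below the 144 CPM of run 2 and the 153 CPM of run 8. Over the 14 DG values, with group means removed, Cdh9 and Cdh12 lined up with each other (r = 0.939) more than any other pair of members, and the lowest was Adarb2 with Car12 (0.522). Gria3, an AMPA receptor subunit gene, was among the 3 genes most like each of them (0.934 and 0.931). All 14 values share the 7 runs.

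The median counts per DG cell were 234 in run 9, 254 in run 11 and 188 in run 12, against 178 to 242 in the other runs. The median volume of a DG cell, in the file's unit, which is not stated, was 527 in run 9, 589 in run 11 and 612 in run 12, the 3 lowest, against 621 to 718 in the others. The summed DG markers ran from 21023 to 29550 CPM in runs 9, 11 and 12 and from 24435 to 35785 CPM in the others. Summed inhibitory markers reached 14420 CPM in run 9 and were lowest in run 2 (7568 to 9474 CPM). Gad1, which is also on the DG list, averaged 5248 CPM of that sum in DG and Cck 3197 CPM. The inhibitory sum is therefore no measure of other cells alone. Summed vascular and ependymal markers were 2104 to 2112 CPM in run 9 against 1220 to 1845 CPM elsewhere. The part of cell outlines, other cells or imaging in the run differences was not tested.

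**Figure D3:**
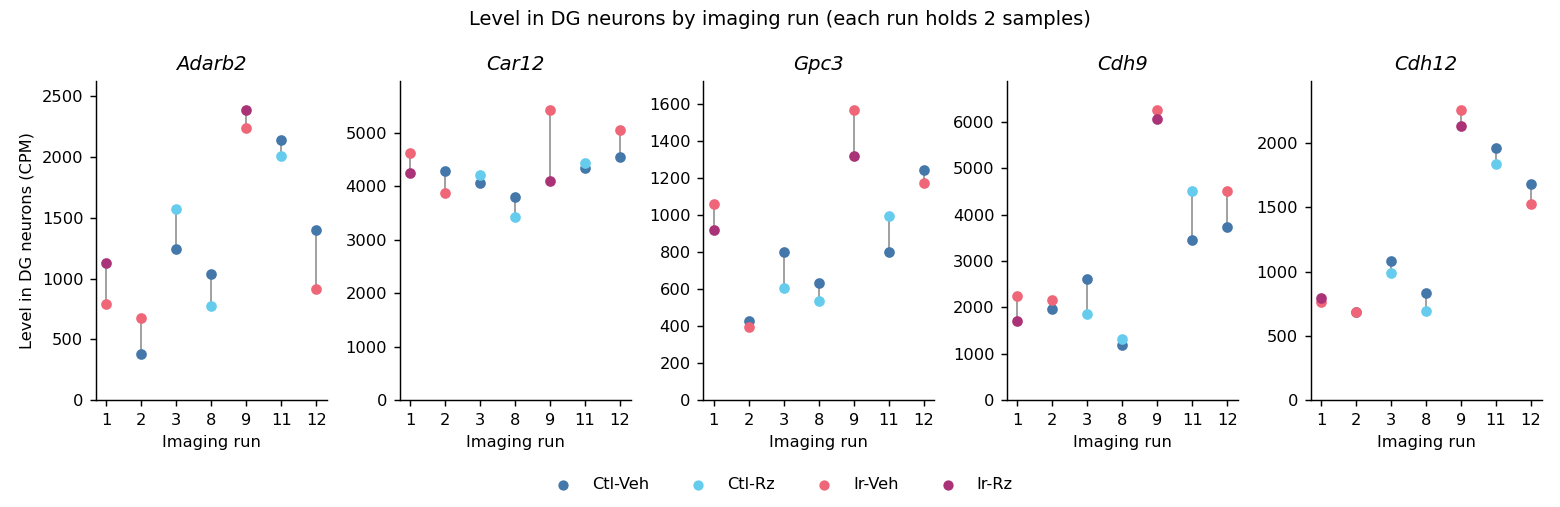
Level in DG neurons (CPM) of each gene by imaging run; each point is 1 of the 2 samples of a run, coloured by group, and a line joins them. Cdh9 and Cdh12 are higher in runs 9, 11 and 12 than in the other 4 runs, whatever the group, and Car12 changes least.

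Within CA3 the 2 cadherins ran in opposite directions along the section. Each sample's CA3 neurons were split at their median distance to the nearest DG neuron, which was 139 to 339 in the file's unit over the samples. Cdh9 was lower in the farther cells of 14 of 14 samples and Cdh12 was higher in 14 of 14. Because the split was chosen after these values had been seen, its p-values describe this pattern and are no independent test of it. Of all 218 genes tested in CA3, 22.9% differed between nearer and farther cells (50 genes, two-sided exact sign-flip permutation test over samples), and 2 of the 5 members did.

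Cdh9 fell from 2896 ± 2100 CPM in nearer to 1920 ± 1269 CPM in farther CA3 cells (n = 14). Its log2 difference was −0.58 ± 0.39 (exact p = 0.000122, the smallest that 14 samples can give, adjusted p = 0.00133). On the log2 scale the drop was largest in Ctl-Rz 3, from 1465 to 589 CPM, and smallest in Ctl-Veh 3, from 2056 to 1973 CPM. In run 9, where Cdh9 was highest, it went from 6953 to 4520 CPM in Ir-Veh 9 and from 6633 to 3269 CPM in Ir-Rz 9.

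Cdh12 rose from 804 ± 503 to 1205 ± 619 CPM, a log2 difference of 0.69 ± 0.47 (exact p = 0.000122, adjusted p = 0.00133). It went from 541 to 1534 CPM in Ctl-Veh 3 and from 192 to 503 CPM in Ir-Veh 2, but only from 1250 to 1261 CPM in Ctl-Rz 11. Over fixed steps of distance with cells of all samples pooled, Cdh12 stood at 729 CPM under 100, 940 from 100 to 200, 1049 from 200 to 400 and 1356 CPM beyond 400, a step that 11 of 14 samples reached. Cdh9 stood at 3061, 3258, 2176 and 2158 CPM in the same steps.

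Gpc3 was lower in the farther cells of 11 of 14 samples (log2 −0.51 ± 0.71, adjusted p = 0.0749) and Car12 higher in 12 of 14 (0.44 ± 0.89, adjusted p = 0.216), and neither passed. Gpc3 passed without Ctl-Veh 8 (0.0499) or Ctl-Veh 12 (0.0186), and Car12 without Ctl-Rz 8 (0.0139). Adarb2 was split evenly, lower in 7 of 14 (−0.14 ± 1.72, adjusted p = 0.900).

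The makeup of the CA3 class moved with distance. The share of cells in its main Leiden cluster was 77.0% of the nearer and 60.3% of the farther cells, and that in the CA1 cluster 6.55% and 16.4%. Fibcd1, a CA1 marker, averaged 209 CPM in nearer and 560 CPM in farther cells. It was higher in the farther cells of only 7 of 14 samples (exact sign-flip adjusted p = 0.875). Genes of the CA3 list did not move together. Cckbr, the cholecystokinin receptor gene, fell by 0.82 on the log2 scale (adjusted p = 0.00213). Iyd (−0.30, adjusted p = 0.252) and Coch, which went the other way (0.86, adjusted p = 0.320), did not pass. In cells of the main CA3 cluster alone, which 12 samples held in sufficient number, Cdh9 was still lower in the farther cells (−0.41, adjusted p = 0.0246). Cdh12 there was 0.52 higher and did not pass (adjusted p = 0.0830), and Car12 passed (0.69, adjusted p = 0.00887).

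DG neurons nearer to and farther from the nearest CA1 neuron showed no such difference. Of 252 genes, 0.397% differed (1 gene, the receptor gene Gpr83, adjusted p = 0.0308, named after its value was seen), and 0 of 5 members did. Cdh12 came closest, lower in the farther cells of 11 of 14 samples (log2 −0.13 ± 0.21, adjusted p = 0.455). Cdh9, at 3140 ± 1825 and 3073 ± 1537 CPM, was split evenly (0.02 ± 0.18).

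**Figure D4:**
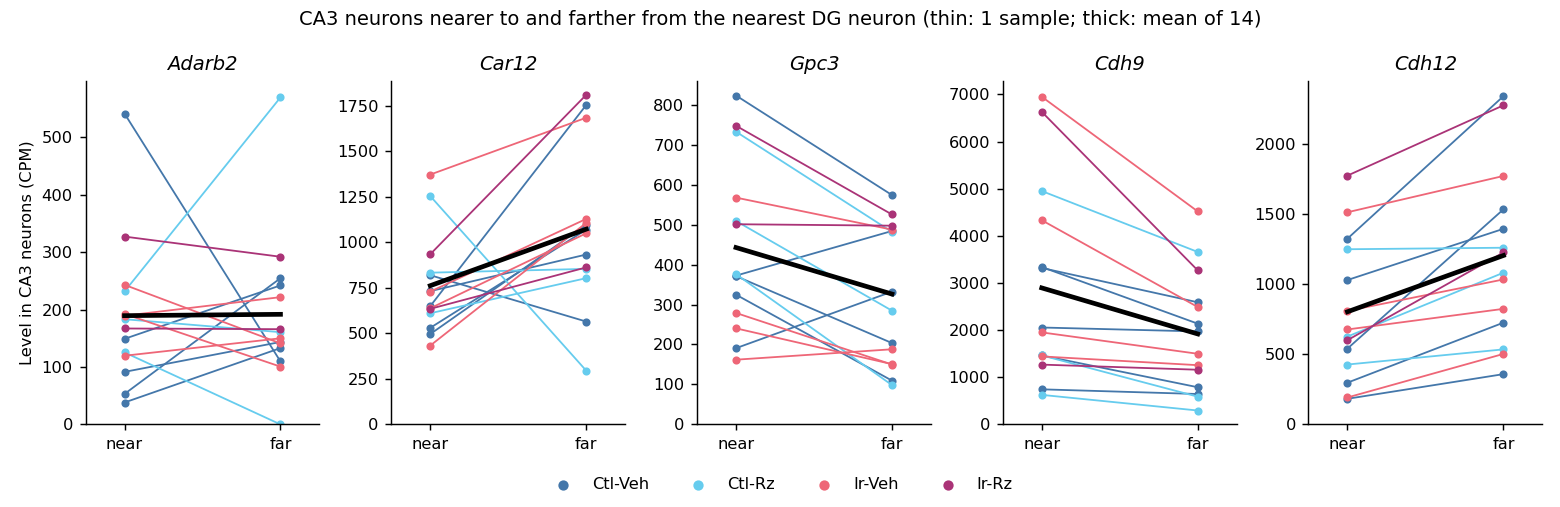
Level (CPM) of each gene in CA3 neurons nearer to and farther from the nearest DG neuron, split at each sample's median distance; thin lines are the 14 samples, coloured by group, and the thick line their mean. Cdh9 goes down and Cdh12 goes up in 14 of 14 samples, while samples go both ways for Adarb2, Car12 and Gpc3.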

How the data were processed

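MERFISH counts of 14 samples were used. Per the series' design text, transcripts were imaged on a MERSCOPE instrument and cell outlines came from a custom Cellpose pipeline; for versions, filters on cells and the naming of classes the sources used here give nothing. The authors deposited whole-number counts per gene and cell for 255 genes, and a table with each cell's class, Leiden cluster, run, volume, position and total count, of which the 255 genes were 55.9% to 59.2% per sample. Unused per-sample columns numbered 0.

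Groups followed the labels. Whether each sample was its own animal is not stated there, and p-values then reflect the spread among the samples at hand, possibly a technical one. Counts were summed per sample and class (DG pools held 51605 to 244218, CA1 pools 47641 to 209206 and CA3 pools 18139 to 60104 counts) and tested with edgeR 4.0.16 (TMM, filterByExpr, quasi-likelihood, 14 samples, group alone) in R 4.3.3, adjusted by Benjamini-Hochberg over all genes of a class and called at 0.05. The SE of a fold change was worked back as its absolute log2 value over the square root of the edgeR F statistic. The 95% limits used that SE and the t distribution. Such an SE can fail where the estimate is near 0, as for the difference of the RZ effects on Adarb2 in CA3 (SE 0.0045). Runs were tested by adding the run to that fit. Position used a two-sided exact sign-flip test on log2(CPM + 5) differences over samples, adjusted over all genes of the class. Scripts were tested on simulated data. No cell was removed (6 had under 20 counts), no doublet caller was run on outlined cells, and cells were never replicates. Intervals on pooled counts (95%) cover counting error only. Python 3.11.15, scipy 1.17.1 and matplotlib 3.10.9 served for the rest.

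The number in a title equals the imaging run of all 13602 cells, so it pairs samples of a run. After subtraction of group means, samples of a run correlated at 0.357 to 0.634 over 241 genes in all 7 runs. Samples of a group differed beyond counting noise (chi-square per degree of freedom of 16.1 or more).

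The members, lists and tests were chosen with earlier results of these data known. The genes named were the members, for each the 3 most similar genes (1 is not reported here), and the measured genes of the cadherin, heparan sulfate, carbonic anhydrase and ADAR lists, with genes of other cell types as counts and sums. The position split was chosen after its values were seen. Alternatives were DESeq2 1.42.0, other library sizes, no filter, cells with 20 or more counts, the main Leiden cluster, the run as a block, thinning to 50 or 200 counts, pseudocounts of 0.5 and 20, and leaving out each sample.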

Additional observations from a re-analysis of the deposited data

Results flagged for a closer look

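Of the 30 sets of samples checked for a value far from the rest of its group (5 genes, 3 classes, groups of 4 and 5 samples), 2 held such a value, where chance alone gives about 1 in 20. Adarb2 in DG neurons of Ir-Veh 9 stood at 2236 CPM, against 675 to 916 CPM in the other Ir-Veh samples. The Ir-Rz sample of the same run stood at 2383 CPM. Gpc3 in CA3 neurons of Ir-Veh 9 stood at 526 CPM, against 174 to 212 CPM in the other Ir-Veh samples, from 23 counts in 146 cells. The Ir-Rz sample of that run had 649 CPM.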

How the results depend on the processing

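Of the alternative values of the main results, 455 held, 30 moved and 4 reversed, though 226 of the 455 are counts of 0 that stayed 0. A count of genes held if it was equal or close to the main count. A difference between classes held if it kept its sign and stayed within the SD over samples, and moved if it kept its sign only. Among values of single genes, 647 held, 40 moved, 64 reversed, 5 fell short of the threshold and 4 passed it. A tested value of a single gene held if it kept its direction and its side of the threshold. Log2 values are given throughout, causes were not tested, and no member passed a group test in DG under any alternative. DG over CA1 was 2.41 per cell and 2.62 per cell volume for Adarb2, 1.20 per cell, 1.38 per volume and 1.71 on deposited totals for Car12, 3.45 per cell for Cdh9, and for Cdh12 it turned to −0.34 per cell and −0.17 per volume. DG over CA3 per cell was 1.70 for Car12 (1.94 per volume) and turned to −0.024 for Cdh9 and −0.14 for Cdh12.

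With the imaging run as a replicate block, the paired fit turned radiation to 0.16 for Adarb2, −0.022 for Gpc3 and 0.0067 for Cdh12, RZ after radiation to −0.16 for Gpc3, RZ without radiation to −0.15 for Adarb2 and the difference of RZ effects to −0.059 for Cdh9, and it changed no other call. Radiation on Cdh12 also turned to 0.0039 without a filter, 0.063 on library sizes without TMM, 0.061 on deposited totals and 0.10 with cell numbers. RZ after radiation on Cdh9 turned to 0.027, 0.0079 and 0.23 under the last 3 in that order, and RZ without radiation to 0.00039 on deposited totals. With cell numbers, RZ without radiation turned to 0.10 for Car12, 0.072 for Gpc3, 0.27 for Cdh9 and 0.12 for Cdh12, and the difference to −0.047 for Cdh9. In Leiden cluster 0 alone, RZ after radiation turned to −0.086 for Gpc3 and −0.018 for Cdh12 and the difference to −0.0067 for Cdh9.

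Leaving out each sample, radiation ran from −0.50 to 0.10 for Adarb2 and −0.24 to 0.21 for Cdh12. RZ after radiation ran from −0.24 to 0.19 for Gpc3, −1.04 to 0.48 for Cdh9 and −0.60 to 0.52 for Cdh12. RZ without radiation ran from −0.29 to 0.40 for Adarb2, −0.65 to 0.056 for Gpc3, −0.92 to 0.17 for Cdh9 and −0.78 to 0.056 for Cdh12. The difference ran from −0.28 to 0.14 for Car12, −0.042 to 0.66 for Gpc3, −0.85 to 0.80 for Cdh9 and −0.34 to 0.80 for Cdh12. The count of genes differing between runs ran from 45 to 118, and that for RZ after radiation in CA3 from 0 to 1.

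By position, Adarb2 in CA3 was 0.0090 per cell and −0.32 to 0.21 with samples left out, and Car12 was −0.042 at a fixed distance of 200. In DG the count was 0 in the main cluster. It was also 0 with each sample left out, which says nothing of stability, since a lone gene can then reach an adjusted p of 0.0615 at best. Cdh9 turned to −0.015 in that cluster and −0.016 per cell. CA3 pools with few counts limit Adarb2 and Gpc3 there most, since the 1 to 19 Adarb2 counts of a sample were shared between its nearer and farther cells. In Ctl-Rz 8 the farther cells had 0 CPM of Adarb2, which gave a log2 difference of −4.70.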
